A study of Mus musculus with 29 samples.

Results

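The T cell and cytotoxic lymphocyte genes described here are 10 protein-coding mouse genes, chosen by symbol, of the 35199 genes in the table of tumor libraries. They are Cd3d, Cd3e and Cd3g (chains of the T cell receptor complex), Cd4, Cd8a and Cd8b1 (coreceptors), and Gzma, Gzmb, Prf1 and Nkg7 (genes of the cytotoxic granule). All 10 were found in every table used. They were measured by RNA-seq of mouse bladder in 29 samples of 8 groups. The mutant animals, named K5VP16;Pparg, carry an activated form of the nuclear receptor Pparg, fused to the viral activator VP16, that tamoxifen switches on in basal cells through a Cre recombinase driven by the Krt5 promoter. Because of that driver the transgene is restricted to cells with Krt5 activity and their progeny.

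Gfp+ basal cells of 4 controls and 5 mutants were sorted at day 4 of induction, and neither group had received a carcinogen. The labels list the controls as wild type and the mutants as K5VP16;Pparg+/-, and the study's methods describe an mTmG reporter in both, with Krt5-driven Cre also in the sorted controls. Tumor tissue was captured by laser from frozen sections of bladders treated with the carcinogen BBN at 0.05% in drinking water. BBN was given for 1 month before tamoxifen, so the transgene of these animals was induced in bladders already exposed to it, and tumors were taken 4 months after tamoxifen. The labels count 5 months of BBN and the sample titles 4 months. The 3 basal tumors came from animals labelled wild type. The study names its control tumors VP16;Pparg fl/fl in some places and K5;mTmG in others. The 3 luminal tumors, and the 3 luminal and 3 basal-like domains of lesions that hold both kinds of tissue, came from K5VP16;Pparg+/- animals. The labels do not tie a luminal domain to the basal-like domain of the same lesion. The remaining 8 samples, wild-type urothelium with or without 1 month of BBN, were 4 and 4. Neither the labels nor the column names say which columns had BBN. No test was therefore made in their table, and its sets of columns are described without a condition. Strain, sex and age at collection were not in the labels. Nothing in the labels says how far libraries of one group come from separate animals, so p-values measure the spread between these libraries.

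A T cell recognises antigen through a receptor whose variable chains cannot signal alone. The Cd3 chains associated with it carry the signal into the cell. Cd4 marks helper and regulatory T cells and binds class II molecules, while Cd8, a pair of an alpha and a beta chain, marks cytotoxic T cells and binds class I molecules. Cytotoxic T cells and natural killer cells kill by releasing granules, in which perforin opens the way for granzymes. In bladder cancer the density of such cells inside a tumor is a common measure of immune infiltration.

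In the GRCm38 annotation Cd3g lies on chromosome 9 at 44969572 to 44980431 on the minus strand, Cd3d at 44981786 to 44987339 on the plus strand and Cd3e at 44998740 to 45009627 on the minus strand. The starts of Cd3g and Cd3d point away from each other, 1355 bases apart. Cd8b1 (71322788 to 71337494) and Cd8a (71373427 to 71379173) are neighbours on the plus strand of chromosome 6, and Cd4 lies on the minus strand of the same chromosome at 124864692 to 124888221. Gzma is on chromosome 13 (113093825 to 113100981, minus strand), Gzmb on chromosome 14 (56258838 to 56262260, minus strand), Prf1 on chromosome 10 (61297833 to 61304680, plus strand) and Nkg7 on chromosome 7 (43437073 to 43438249, plus strand). Values count transcripts of the whole gene. An exon of Cd3e overlaps one of the antisense gene Gm48719, and the library kit does not mark strand, so reads of both genes cannot be told apart there. Of the 31-base words in the transcripts of each member, the length kallisto matches on, between 0% (Gzma and Nkg7) and 8.40% (Cd8b1) occur in transcripts of another gene. For Gzmb this is 19 of 1406 words, shared mostly with Gzmc, another granzyme.

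The promoters shown are 4 in number, those of Cd3e, Cd3g and Nkg7, whose values did not overlap between the domains of mixed lesions, and that of Gzmb, which was at or near 0 in the luminal domains. Each comes from the 250 bases before the start site in RefSeq (GRCm38.p6), 5′ to 3′ on the gene's strand, without the bases next to the start that lie inside the gene in the annotation above (16 for Cd3e and 65 for Nkg7). Capitals mark matches, on either strand, to TGTGGT (RUNX), AGGAAG (ETS), AGGTCA (the core motif of PPAR and its partner RXR), TGANTCA (AP-1, where N is any base) and TATAAA (the core of the box bound by TBP).
Cd3e, chr9:45009628-45009861, minus strand: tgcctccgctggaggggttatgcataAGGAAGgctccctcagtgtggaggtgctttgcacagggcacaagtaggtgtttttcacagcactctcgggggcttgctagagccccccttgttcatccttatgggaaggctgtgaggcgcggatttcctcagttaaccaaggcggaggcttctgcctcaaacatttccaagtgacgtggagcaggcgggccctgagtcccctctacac
Cd3g, chr9:44980432-44980681, minus strand: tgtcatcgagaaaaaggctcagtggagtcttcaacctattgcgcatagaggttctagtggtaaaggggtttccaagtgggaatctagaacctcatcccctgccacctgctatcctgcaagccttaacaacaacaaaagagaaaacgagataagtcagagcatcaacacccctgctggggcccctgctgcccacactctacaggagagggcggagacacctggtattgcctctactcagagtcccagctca
Nkg7, chr7:43436888-43437072, plus strand: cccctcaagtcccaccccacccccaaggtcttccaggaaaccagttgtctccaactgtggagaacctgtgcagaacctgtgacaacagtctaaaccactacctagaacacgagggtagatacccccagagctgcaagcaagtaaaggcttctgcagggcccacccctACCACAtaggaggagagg
Gzmb, chr14:56262335-56262584, minus strand: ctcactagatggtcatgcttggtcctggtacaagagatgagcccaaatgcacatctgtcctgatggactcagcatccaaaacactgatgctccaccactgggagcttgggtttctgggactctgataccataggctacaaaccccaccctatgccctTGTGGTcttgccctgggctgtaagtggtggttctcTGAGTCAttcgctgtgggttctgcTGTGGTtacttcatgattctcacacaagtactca
The table of promoters held 8 of the 10 members. TGTGGT was in 4 of these 8 (Gzma, Gzmb, Nkg7 and Prf1) and in 14% of 32817 promoter windows of the same length. AGGAAG was in 4 (Cd3d, Cd3e, Nkg7 and Prf1) and in 29.5% of all windows. TGANTCA was in Gzmb alone, overlapping no other match, and in 6.75% of all windows. AGGTCA and TATAAA were in none of the 8, and in 14% and 12.4% of all windows. These counts use all 250 bases of each window, so 1 AGGAAG match each of Cd3e and Nkg7 lies in bases not shown. A match describes the letters and not a bound site.

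The deposited values are normalized counts, which the authors made within each table, so values were compared only within a table. They sum to between 33516643 and 53904714 per library, but they are not reads, and the depth behind a value is unknown. Pparg was 13.0 to 126 normalized counts in the basal tumors and 3579 to 8632 in the luminal tumors, and Upk2, a marker of luminal urothelium, was 10.8 to 121 against 3492 to 60114. Between the domains Pparg was 4116 to 5427 in luminal and 2326 to 3230 in basal-like tissue, while Upk2 overlapped, at 3629 to 42509 against 458 to 9449. In the sorted cells Pparg was 9381 to 9999 in controls and 6111 to 9032 in mutants, and whether these counts include the transgene is not known. In the tumor table the basal tumor library CT113 stands apart for the lymphocyte genes, and results that rest on it are given with and without it. Among the sorted cells, 4 Y-linked genes summed to between 9030 and 9177 in 3 controls and to 404 or less in the remaining control and the 5 mutants. That split and the genotype cannot be told apart, save through the 1 remaining control. In bulk tissue, fewer cells of a type and less RNA per cell cannot be told apart either.

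Luminal tumors of K5VP16;Pparg mice were compared with basal tumors of controls to see whether lymphocyte transcripts differ between the subtypes. No member passed the test. The 10 genes were abundant in 1 of the 3 basal tumors and low and uneven in the other 2 and in the luminal tumors. Their values sum to 373, 23441 and 636 in the basal tumors, in the order CT111, CT113 and CT115. The luminal tumors CT126, CT132 and CT140 hold 1387, 208 and 1062. All 10 members were highest in CT113 among the basal tumors, where that library holds between 74.0% (Cd4) and 99.6% (Cd8b1) of the group's sum.

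**Figure D1:**
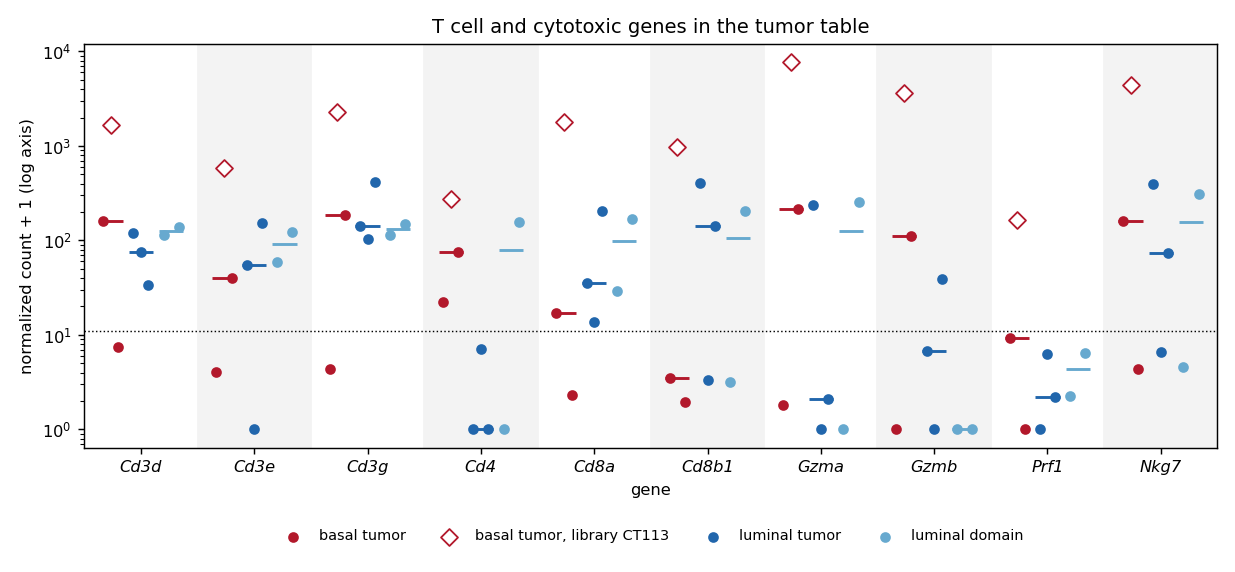
Normalized count plus 1 (log axis) of each of the 10 genes in the 3 basal tumor, 3 luminal tumor and 2 luminal domain libraries of the tumor table. Each point is 1 library, the open diamond is basal tumor library CT113, horizontal bars are group medians and the dotted line is a normalized count of 10. CT113 is the highest point for every gene, and the basal and luminal tumors overlap for every gene but Cd4.

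Among the receptor chains, Cd3g was 3.33, 2278 and 187 normalized counts in the basal tumors and 140, 101 and 416 in the luminal tumors. Cd3d was 158, 1645 and 6.50 in basal tumors against 120, 74.7 and 33.1. Cd3e was 3.07, 584 and 38.9 against 53.7, 0 and 152. For each of these genes the lowest value belonged to a different library, and both groups overlapped. The log2 fold changes, luminal minus basal on log2(normalized count + 1), were -0.88 ± 1.76 (SE, n = 3 and 3) for Cd3d, -1.17 ± 2.25 for Cd3e and 0.57 ± 1.93 for Cd3g, with limma adjusted p of 0.829, 0.825 and 0.908.

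The coreceptors differed from one another in pattern. Cd4 was 21.2, 270.5 and 73.6 in the basal tumors and 0, 6.08 and 0 in the luminal tumors. It was the only member whose groups did not overlap, and 11.6% of all genes tested were likewise lower in luminal tumors without overlap. Its log2 fold change was -5.32 ± 1.99, with an unadjusted p of 0.024 and a limma adjusted p of 0.199. An unadjusted p under 0.05 was reached by 1 of the 9 members tested and by 18.4% of all genes. Cd4, that 1 member, was under 10 normalized counts in every luminal tumor. It passed the filter only because the basal tumors, where it was high, count in it. Neither its lack of overlap nor its p is therefore read against these shares. Cd8a was 16.2, 1781 and 1.31 against 34.4, 12.7 and 206, and Cd8b1 was 2.53, 963 and 0.928 against 400.3, 2.32 and 143. Outside CT113 the highest values of both Cd8 chains were thus those of luminal tumors, yet of different ones, CT140 for Cd8a and CT126 for Cd8b1. Cd8a as a percent of Cd4 was 76.1, 658 and 1.78 in basal tumors and 208 in CT132, and has no value in the luminal tumors where Cd4 was listed at 0.

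Of the granule genes, Gzma, a granzyme, was 0.824, 7669 and 213 in the basal tumors and 235, 0 and 1.08 in the luminal tumors. Gzmb, the granzyme that activates caspases, was 0, 3641 and 111 against 5.73, 0 and 38.1. Nkg7, a granule membrane protein, was 160, 4446 and 3.35 against 397, 5.54 and 72.1. Every one of these comparisons overlapped. Prf1, the pore-forming perforin, was 8.28, 165 and 0 against 0, 5.27 and 1.18 and passed the filter of 10 normalized counts in too few libraries to be tested. The log2 fold changes were -4.19 ± 3.34 for Gzma, -3.53 ± 2.68 for Gzmb and -1.34 ± 2.65 for Nkg7, with limma adjusted p of 0.546, 0.525 and 0.828. Without library CT113 they were -1.32, -0.73 and 1.12, and without the basal tumor CT111 -7.34, -6.64 and -1.27.

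In sum 9 of the 10 members were tested and 0 were called at a limma adjusted p under 0.05, where 338 of 15357 genes, or 2.2%, were called. The median log2 fold change of the 9 was -1.17, and -0.11 over all genes. Without library CT113 the median of the 9 was 0.97, and 6 of them were higher in luminal tumors. The fold changes of Cd3d and Cd3e then turned positive as well, to 0.97 and 0.67, and those of Cd3g, Cd8a and Cd8b1 were 2.67, 2.88 and 4.47, while that of Cd4 was -4.41. Without the luminal tumor CT132 the median was 0.22. It was -2.91 without CT115, -1.88 without CT126, -1.85 without CT111 and -1.52 without CT140.

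**Figure D2:**
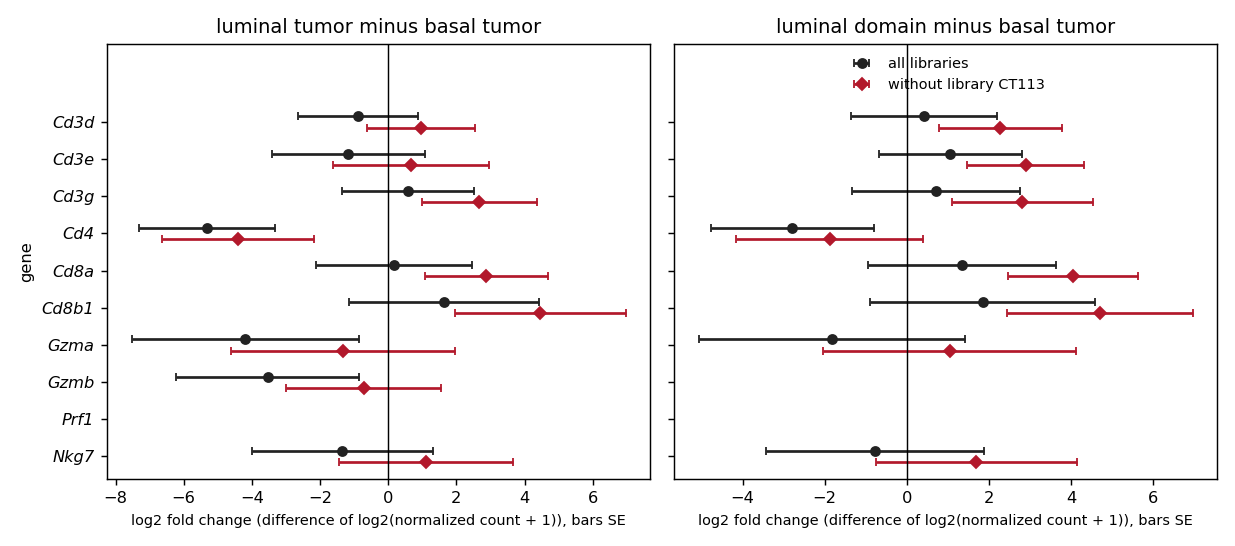
Log2 fold change of each gene, on log2(normalized count + 1), for luminal tumor minus basal tumor (left) and luminal domain minus basal tumor (right). Black circles use all libraries, red diamonds leave out library CT113, bars are SE, and genes with too few counts to be tested have no point. Leaving CT113 out moves every gene toward higher values in the luminal tissue, and Cd4 stays at -4.41 in the left panel.

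The other T cell genes of the tumors were read from lists. Of all genes tested 54% had a negative fold change. A list gene near 0 in luminal tumors could pass the filter only through other libraries, which can tilt a count of signs. Counts of signs in the lists are therefore not read against that share. Of 24 genes for T cell receptor chains and signalling, 15 were tested, all 15 had a negative fold change (median -3.40) and 1 was called lower in luminal tumors. Without library CT113, which holds 14560 of that list's summed normalized counts against 3146 and 2491 in the other basal tumors, 14 of 16 were negative and the median was -1.85. The called gene was Thy1, a surface glycoprotein of T cells that fibroblasts also carry, at 1800, 1853 and 445 normalized counts in basal tumors and 33.2, 15.1 and 39.9 in luminal tumors. The fold change was -5.34 ± 0.96, with a limma adjusted p of 0.035, and all 3 basal tumors lay above all 3 luminal tumors. Beside it, the fibroblast list sums to between 44454 and 66575 in basal tumors and to between 212 and 17130 in luminal tumors, with no gene at 0 in basal tumors and 1 at most in luminal ones, and 6 of 6 fold changes were negative, 2 of them called. The smooth muscle list sums to between 4745 and 42943 in basal tumors, with no gene at 0, and to between 11.6 and 1053 in luminal tumors, with 1 to 4 of 5 at 0, and 5 of 5 fold changes were negative (median -6.65), 2 of them, Acta2 and Cnn1, called. The endothelium list sums to between 1252 and 2287 and to between 370.2 and 1053, with 1 gene at 0 in each luminal tumor, and 4 of 4 were negative (median -3.38), 0 called. The part of these lists in the Thy1 result was not tested. Trac, the constant region of the receptor's alpha chain, was 101, 1506 and 525 against 105, 0 and 58.1, which overlapped.

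Of 10 T cell transcription factors, 8 were tested, 5 had negative and 3 positive fold changes, and 1 was called lower. The median was -1.91, or -1.61 without CT113 and -1.16 without CT132. The called gene was Runx3, a factor of cytotoxic T cells that other leukocytes use too, at 219, 529 and 344 in basal tumors and 1.16, 2.35 and 0 in luminal tumors (log2 fold change -7.47 ± 1.52, limma adjusted p 0.042). Runx3 was thus under 10 normalized counts in every luminal tumor. It passed the filter only because the basal tumors, where it was high, count in it. Of 24 other cytotoxic and natural killer cell genes, 9 were tested, 8 had negative fold changes, 1 was called lower and the median was -3.11. Without CT113, at 17253 against 5921 and 2041 for the list, 7 of 9 were negative and the median was -1.07. The called gene was Fcgr3, an Fc receptor of natural killer cells and also of macrophages, at 5503, 4377 and 1500 against 160, 199.8 and 682 (-3.56 ± 0.70, limma adjusted p 0.040). Runx3 lost its call in each of the 6 fits that left out 1 library, and Thy1 and Fcgr3 kept it in 1 of 6 each, the one without CT140, with adjusted p up to 0.134 (Thy1), 0.129 (Runx3) and 0.146 (Fcgr3). Their fold changes in those fits were -6.01 to -4.93 (Thy1), -7.86 to -6.99 (Runx3) and -4.20 to -3.16 (Fcgr3). None of the 10 members was called in any of those fits.

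Ptprc, the leukocyte antigen CD45, did not overlap between the groups. It was 1706, 3740 and 907 in basal tumors and 81.2, 47.7 and 594 in luminal tumors, with a log2 fold change of -3.75 ± 0.99 and a limma adjusted p of 0.091. Without the luminal tumor CT140 it was -4.83 and called lower (limma adjusted p 0.020), and without CT132 it was -3.02 (0.253). Cd3e as a percent of Ptprc was 0.180, 15.6 and 4.29 in the basal tumors and 66.1, 0 and 25.6 in the luminal tumors, and these ratios overlap. The summed macrophage and monocyte list was 155541, 67493 and 32849 in basal tumors and 22180, 4322 and 21030 in luminal tumors. Library CT113 was thus not the highest for macrophage genes. It was the highest for the mast cell list (25984, against 239 and 2436) and for the B cell list (1417, against 4.53 and 93.9). It was the lowest basal tumor for the neutrophil list (346, against 15793 and 12816). Whether these cells have a part in the lymphocyte values was not tested.

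**Figure D3:**
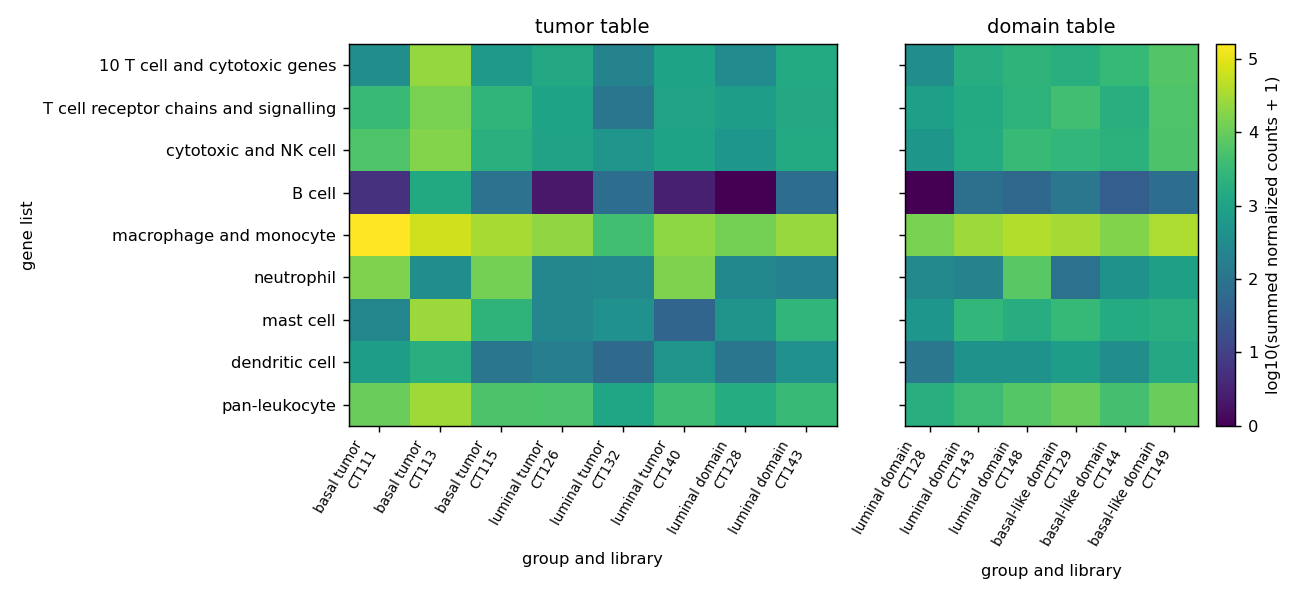
Color gives log10 of the summed normalized counts plus 1 of each gene list (rows) in each library (columns), for the tumor table (left) and the domain table (right), which were normalized separately. In CT113 the 10 genes sum to 23441 normalized counts and the mast cell list to 25984, while the macrophage list is highest in CT111, at 155541.

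Luminal domains of mixed lesions were compared with basal tumors in a table of their own. In it 8 members were tested and 0 were called, where 377 of 14921 genes, or 2.53%, were called. The basal tumors are the libraries used above, so the comparisons share them. In the luminal domains, in the order CT128, CT143 and CT148, the members sum to 336, 1651 and 2266, against 402, 24332 and 671 in the basal tumors. With CT113 counted, the Cd3 chains spanned a narrower range in the luminal domains. Cd3e ran from 60.0 to 126 there and from 3.12 to 582 in basal tumors, and Cd3d from 120 to 288 against 6.69 to 1680. Without CT113 the basal tumors were at 3.12 and 39.1 for Cd3e and at 164 and 6.69 for Cd3d. Cd3g was then 3.47 and 193, against 119 to 459 in luminal domains. On the count scale the wider basal range thus rests on that library. Log2 fold changes, luminal domain minus basal tumor, were 0.42 ± 1.78 for Cd3d, 1.06 ± 1.74 for Cd3e, 0.71 ± 2.04 for Cd3g, 1.35 ± 2.29 for Cd8a and 1.85 ± 2.74 for Cd8b1. Those of Cd4, Gzma and Nkg7 were -2.78 ± 1.99, -1.83 ± 3.24 and -0.77 ± 2.65, and limma adjusted p ranged from 0.477 (Cd4) to 0.916 (Cd3d) over the 8. The fold change of Cd4 was -0.92 without CT128, -1.88 without CT113 and -4.72 without CT143, and that of Cd8b1 was 4.70 without CT113, 4.05 without CT128 and 0.21 without CT115.

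Gzmb and Prf1 were near 0 in the luminal domains. Gzmb was 0 in CT128 and CT143 and 1.08 in CT148, while basal tumors were listed at 0, 3763 and 116. Prf1 was at most 6.41 in the luminal domains. Neither gene was tested. The median log2 fold change of the 8 members was 0.57, against 0.01 over all genes, and 2.55 without CT113, when 7 of 8 were higher in the luminal domains. It was -0.68 without CT111 and -1.13 without CT115. An unadjusted p under 0.05 was reached by 0 of the 8 members and by 20.6% of all genes.

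The 3 wider lists of T cell and cytotoxic genes had negative median fold changes in this comparison, where the median of the members was positive, and none of these differences between lists was tested. Of the T cell receptor list 18 of 24 genes were tested and 0 were called, 14 had negative fold changes in the luminal domains and 3 had an unadjusted p under 0.05. The median log2 fold change of the list was -1.66, and -0.66 with 11 of 19 negative without CT113. Over all genes tested 49.6% had a negative fold change, and the limit of the filter given for the tumor lists holds here too. Trac was 106, 1551 and 545 in basal tumors and 1.16, 61.9 and 80.1 in luminal domains, without overlap (-4.34 ± 1.66, limma adjusted p 0.196). Trbc1 and Trbc2, constant regions of the receptor's beta chain, did overlap. Trbc1 was 157, 1379 and 16.6 in basal tumors and 17.4, 175 and 191 in luminal domains. Trbc2 was 176, 2022 and 213 against 87.2, 120 and 252. Of the list of T cell transcription factors 8 of 10 were tested, 5 were negative, 3 were positive and 0 were called. The median was -1.59, and -1.31 without CT113, -0.71 without CT128 and -0.75 without CT143. An unadjusted limma p under 0.05 was reached by 6 of the 8, in both directions, and by 20.6% of all genes. That count is not read against the share, for the same limit of the filter. The highest genes of the receptor list were Thy1, at a log2 fold change of -2.82 ± 0.78 (limma adjusted p 0.104), and Lck, the kinase that starts receptor signalling, at -3.02 ± 2.29 (0.504). Of the cytotoxic and natural killer list 10 were tested, 6 were negative and 0 were called (median -0.31). That median was 1.86 without CT113 and 0.78 without CT128. It was -2.22 without CT115, -1.67 without CT111, -1.14 without CT148 and -0.64 without CT143. In this list Fcgr3 was at -2.28 ± 0.67 (limma adjusted p 0.116) and Ccl5, a chemokine that T cells release, at -2.62 ± 1.29 (0.299). Without CT113 these 4 fold changes were -2.47 (Thy1), -2.39 (Lck), -2.09 (Fcgr3) and -1.13 (Ccl5). That of Lck was -0.030 without the luminal domain CT128 and -4.55 without CT143.

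Ptprc was 1756, 3776 and 924 in basal tumors and 157, 274 and 760 in luminal domains. The groups did not overlap, and 12.8% of all genes tested were likewise lower in luminal domains without overlap. The log2 fold change was -2.51 ± 0.74 with a limma adjusted p of 0.118. The fold changes of all 6 genes of the pan-leukocyte list were negative (median -1.82, 3 with an unadjusted p under 0.05, 0 called), as were those of 7 of 9 macrophage genes (median -1.72, 4 and 0). The fibroblast list sums to between 45948 and 70263 in basal tumors and to between 5011 and 31289 in luminal domains, with no gene at 0, and 6 of 6 fold changes were negative (median -2.81, 4 with an unadjusted p under 0.05, 0 called). The smooth muscle list sums to between 4930 and 45206 in basal tumors, with no gene at 0, and to between 1032 and 1622 in luminal domains, with 2 or 3 of 5 at 0, and 5 of 5 were negative, 2 of them, Acta2 and Cnn1, called lower. The part of these cells in the lymphocyte values was not tested.

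Basal-like domains were compared with luminal domains of mixed lesions to ask whether lymphocyte transcripts differ between the parts of one kind of lesion. Cd3e, Cd3g and Nkg7 were higher in all 3 basal-like domains than in any luminal domain, at group means of 2.71, 2.91 and 3.98 times the luminal level, but no member passed the test. Over all genes 5.62% were higher without overlap, against 3 of the 8 members tested. Nkg7 was at 4.00 in the luminal domain CT128, and it passed the filter only because the basal-like domains, where it was high, count in it. The count of 3 is therefore not read against that share. The basal-like domains are given in the order CT129, CT144 and CT149. The members sum to 368, 1700 and 2384 in luminal domains and to 1831, 3001 and 6286 in basal-like domains, and these sums overlap.

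Cd3g was 119, 161 and 462 normalized counts in the luminal domains and 599, 714 and 848 in the basal-like domains. Its log2 fold change, basal-like minus luminal, was 1.78 ± 0.63 (SE, n = 3 and 3), with an unadjusted p of 0.022 and a limma adjusted p of 0.935. Cd3e was 52.7, 112 and 98.5 against 227, 177 and 311 (1.46 ± 0.73, unadjusted p 0.080, limma adjusted p 0.935). The lowest basal-like value of each gene lay above the highest luminal one, by 137 for Cd3g and 64.6 for Cd3e. Cd3d was 158, 196 and 385 against 218, 270 and 552, and overlapped (0.48 ± 0.66, limma adjusted p 0.977). All 3 chains were lowest in CT128 among the luminal domains.

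The library numbers of the domains run in consecutive pairs, CT128 and CT129, CT143 and CT144, and CT148 and CT149, and nothing in the sources used here says whether such a pair shares a lesion. This grouping was chosen after the values were seen, and no test was made with it. In each of the 3 pairs the basal-like library was higher for Cd3d, Cd3e, Cd3g and Nkg7, which are 4 of the 8 members tested, as it was for 17.7% of all genes tested. Since Nkg7 passed the filter only with the basal-like domains, this count is not read against that share. Cd3d was 1.38, 1.37 and 1.43 times its luminal value in these pairs, and the summed members were also higher in each. Pparg was 0.595, 0.571 and 0.565 times its luminal value. For the other 6 members at least 1 pair was not higher in the basal-like library.

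Nkg7 was 4.00, 351 and 454 in the luminal domains and 478, 775 and 1969 in the basal-like domains (3.28 ± 1.64, unadjusted p 0.081, limma adjusted p 0.935). Its lowest basal-like value lay 24.1 above its highest luminal one. The fold change was 1.17 without the luminal domain CT128 and 4.42 without CT148. Gzma was 0, 275 and 271 against 122, 496 and 247, which overlapped (2.55 ± 2.09, limma adjusted p 0.950). Gzmb was 0, 0 and 1.09 against 0, 132 and 246, and Prf1 was 1.43, 6.55 and 1.04 against 0, 125 and 93.9. Both of these genes were thus above 90 in CT144 and CT149 and under 10 in the other domains, and neither passed the filter. At group medians per kilobase of the longest transcript, Nkg7 was the highest member of the basal-like domains (880 normalized counts per kilobase), followed by Cd3g (281) and Gzma (248).

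The coreceptors overlapped. Cd4 was 0, 184 and 10.4 in luminal and 62.0, 28.1 and 91.3 in basal-like domains (2.11 ± 1.86, limma adjusted p 0.951, and 0.26 without CT128 and 4.03 without CT143). Cd8a was 31.1, 186 and 240.1 against 3.32, 199.8 and 1207 (-0.16 ± 1.96, 0.998), and Cd8b1 was 2.35, 227 and 461 against 121, 84.6 and 721 (1.47 ± 1.85, 0.971). The domains CT149 and CT148 were the highest of their group for both Cd8 chains. Cd8a as a percent of Cd4 ran from 5.36 in CT129 through 711 in CT144 to 1322 in CT149, and was 101 and 2299 in the luminal domains where Cd4 was above 0.

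**Figure D4:**
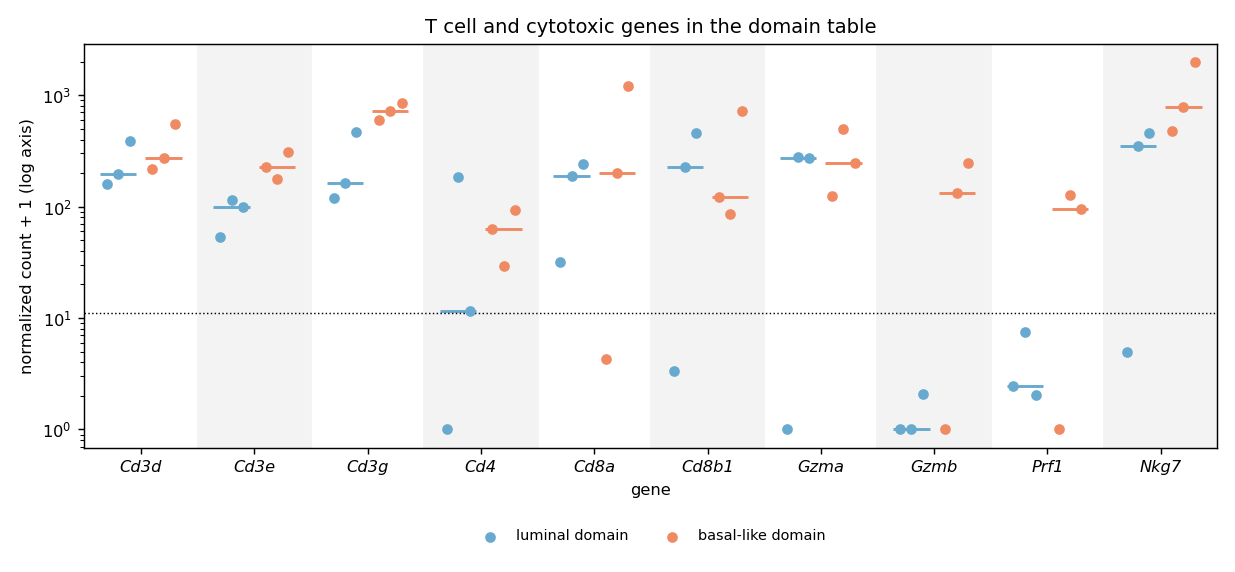
Normalized count plus 1 (log axis) of each of the 10 genes in the 3 luminal and 3 basal-like domain libraries of the domain table. Each point is 1 library, horizontal bars are group medians and the dotted line is a normalized count of 10. Cd3e, Cd3g and Nkg7 do not overlap between the groups, and Gzmb and Prf1 are above 90 in 2 basal-like domains and under 10 elsewhere.

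Of the 14874 genes tested between the domains, 0 (0%) were called by limma at an adjusted p under 0.05, and 757, or 5.09%, had an unadjusted p under 0.05, as did 1 of the 8 members, Cd3g. The median log2 fold change of the 8 members was 1.63, against 0.01 over all genes. Without library CT128 it was 0.24, with 5 of 8 higher in basal-like domains, and it ranged from 1.45 to 2.19 without any one of the others. Over all genes tested 49.3% had a negative fold change. List genes near 0 in luminal domains could pass the filter only through the basal-like domains, so counts of signs in the lists are not read against that share. Of the T cell receptor list 18 of 24 were tested and 17 had positive fold changes (median 1.61), with 0 called. Thy1 was 192, 81.2 and 174 against 1188, 248 and 375 (1.77 ± 0.77, limma adjusted p 0.935), and Lck was 0, 500.4 and 450.5 against 444, 372 and 372. Trac was 1.16, 62.6 and 80.9 in luminal domains and 409, 165 and 444 in basal-like domains, again without overlap. The beta chain genes overlapped here too. Trbc1 was 17.3, 176 and 192 against 291, 132 and 869, and Trbc2 was 86.3, 120 and 253 against 489, 173 and 475. Of the cytotoxic and natural killer list 12 of 24 were tested and all 12 had positive fold changes (median 1.10), with 0 called. Without CT128 the median was 0.33, with 11 of 17 positive. Its highest genes were Fcgr3 (0.76 ± 0.56, limma adjusted p 0.943) and Klrk1, the activating receptor NKG2D (4.79 ± 2.21, 0.935). The fold change of Klrk1 was 2.96 without CT128 and 7.41 without CT148. Klrk1 was 0, 3.24 and 481 in luminal domains and 99.0, 334 and 1287 in basal-like domains. It passed the filter only because the basal-like domains, where it was high, count in it.

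Ptprc was 165, 291 and 807 in the luminal and 1090, 611 and 681 in the basal-like domains (1.18 ± 0.65, limma adjusted p 0.935). Cd3e as a percent of Ptprc was 32.0, 38.7 and 12.2 in luminal and 20.8, 29.0 and 45.6 in basal-like domains. That ratio overlapped, while Cd3e itself did not. Summed levels of the fibroblast list, with 6 of 6 genes tested and positive fold changes and no gene at 0, were 5225 to 32313 in luminal and 13859 to 104068 in basal-like domains. Those of the macrophage list, with 5 of 9 fold changes positive and no gene at 0, were 14186 to 39856 and 16744 to 35746. Fold changes were positive for 6 of 6 pan-leukocyte genes (median 1.11), 5 of 5 dendritic cell genes (1.61) and 3 of 3 smooth muscle genes tested (1.14). They were negative for 3 of 4 neutrophil genes tested (-1.02) and 6 of 6 luminal urothelium genes (-1.85), and 0 of these were called. The part of these lists in the member values was not tested.

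Luminal domains and luminal tumors share the tumor table, and none of the 9 members tested was called between them. By limma 0 of 16640 genes (0%) were called, and 761, or 4.57%, had an unadjusted p under 0.05, none of them a member. Cd4 was 0 and 156 in the 2 domains of that table and 0, 6.08 and 0 in the tumors (2.71 ± 2.25, limma adjusted p 0.998). Gzmb was 0 in both domains and 5.73, 0 and 38.1 in the tumors. Cd4 and Gzmb each reached 10 in 1 of these 5 libraries and were tested only because the basal tumors of the table count in the filter. Among the 5 libraries of luminal tissue, CT143 was the highest for Cd3d, Cd4, Gzma and Prf1, CT140 for Cd3e, Cd3g, Cd8a and Gzmb, and CT126 for Cd8b1 and Nkg7. No library was highest for more than 4 of the 10 genes.

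In sorted basal cells, 4 days after induction, the 10 genes were low in both genotypes and 0 of the 6 members tested were called, where 467 of 16413 genes, or 2.85%, were called. The members sum to 181, 176, 158 and 215 normalized counts in the controls and to 117, 119, 153, 189 and 133 in the mutants, and these sums overlap. Ptprc was between 43.9 and 94.6 in these 9 libraries. The fibroblast list sums to between 11651 and 84707 in controls and to between 30652 and 217371 in mutants, with no gene at 0 and 6 of 6 fold changes positive, 1 of them called. The part of this list in the member values was not tested, and 49.5% of all genes tested had a negative fold change.

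Cd3d stood out in level among the receptor chains. It was 90.3, 40.0, 48.8 and 52.9 in the controls (CT063, CT065, CT066 and CT067) and 45.3, 61.7, 66.7, 75.9 and 60.3 in the mutants (CT070, CT071, CT074, CT076 and CT078), with a log2 fold change, mutant minus control, of 0.14 ± 0.30 and a limma adjusted p of 0.818. Cd3e was 10.1, 40.3, 16.1 and 33.2 against 16.6, 14.7, 9.71, 11.3 and 11.5 (-0.75 ± 0.43, 0.354). Cd3g was 14.0, 21.5, 11.7 and 36.8 against 18.9, 13.2, 8.24, 13.7 and 5.60 (-0.74 ± 0.45, 0.386). The 3 chains assemble into one complex. Per kilobase of the longest transcript the control medians were 31.4 for Cd3d, 9.67 for Cd3e and 6.98 for Cd3g. Of the 31-base words of Cd3d transcripts, 3.10% occur in other genes, and their part in its level was not tested.

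Cd4 had the smallest p of the members in these cells. It was 33.3, 16.7, 34.5 and 34.7 in controls and 16.2, 7.52, 16.4, 27.3 and 10.5 in mutants, and 1 control overlapped the mutants. The control low in Y-linked genes, CT063, was at 33.3, above each of the 5 mutants. The log2 fold change was -0.96 ± 0.41, with an unadjusted p of 0.042 and a limma adjusted p of 0.222. Among all genes 20.8% had an unadjusted p under 0.05, against 1 of the 6 members. Cd8a was 16.2, 16.6, 25.8 and 27.1 in controls and 13.2, 9.25, 26.3, 29.4 and 24.0 in mutants (-0.14 ± 0.40, 0.869). Gzmb was 3.80, 29.3, 9.30 and 16.3 against 2.61, 3.41, 10.1, 13.4 and 10.96 (-0.69 ± 0.63, 0.572). Cd8b1, Gzma, Prf1 and Nkg7 never exceeded 8.56 and were not tested. Lck was 76.1 to 103 in controls and 100.3 to 190.4 in mutants (0.58 ± 0.24, limma adjusted p 0.200), and Thy1 overlapped (-0.17 ± 0.22, 0.707). The T cell receptor list had 18 of 24 genes tested and 0 called, and the cytotoxic and natural killer list 6 of 24 tested and 0 called.

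**Figure D5:**
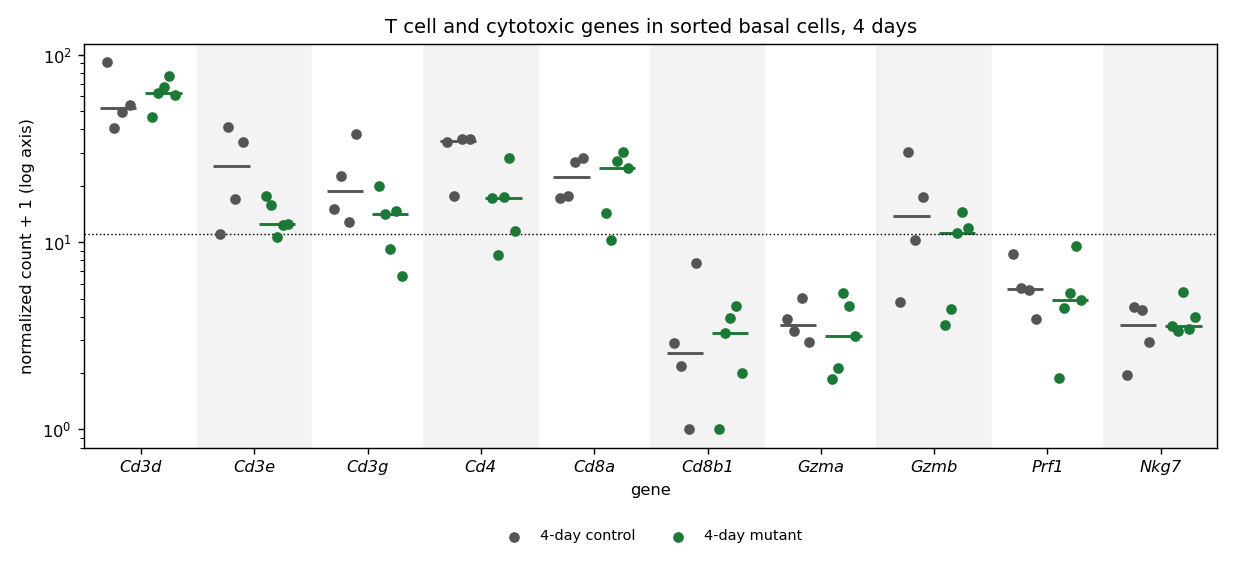
Normalized count plus 1 (log axis) of each of the 10 genes in 4 control and 5 K5VP16;Pparg libraries of sorted basal cells. Each point is 1 library, horizontal bars are group medians and the dotted line is a normalized count of 10. Cd3d lies between 40.0 and 90.3 in all libraries, and Cd8b1, Gzma, Prf1 and Nkg7 lie under the dotted line.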

How the data were processed

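RNA of sorted cells or laser-captured tissue was amplified with SMART-Seq v4 and sequenced by the authors. Per the labels and the study's methods the authors quantified transcripts with kallisto 0.44.0, summed them to genes with tximport and normalized each table with DESeq2 1.18. Signal values deposited in the 6 tables used are the resulting normalized counts. The factors are gene-specific, so reads could not be recovered, and no test on counts was used. The deposited lists of fold changes and p-values from the authors' own comparisons were not used. The transcript index of these tables is not given in the sources used here.

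The genes tested reached 10 normalized counts in a number of libraries no lower than the size of the smaller group compared, counted over all libraries of the table, so that in the tumor table the third group counted too. The test was limma 3.58.1 in R 4.3.3 (lmFit, then eBayes with a mean trend) on values taken as log2(normalized count + 1), which understates changes of low genes, with Benjamini-Hochberg adjustment over all genes tested and a threshold of 0.05. The tumor table was fitted as 3 groups. The code was tested on simulated data. Coordinates and transcripts came from GENCODE M21 (GRCm38) and promoters from RefSeq. Figures were drawn with Python 3.11.15 and matplotlib 3.10.9.

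Groups came from the labels. Columns carry library numbers (CT) that could be tied to a group. By the tables that each sample names, CT148 is replicate 3 of the luminal domain and CT063 replicate 1 of the 4-day controls, and no other column could be tied to a replicate number. The members, the 14 marker lists and the comparisons were chosen with earlier results of these data known. All 10 members are named in each comparison. Of the lists the called genes are named, at most 5, or the 2 of highest mean, with the first gene of a list as context. Trbc1 and Trbc2 were added beside Trac. Alternatives were other pseudocounts (0.5 and 5), filters (none and 50), eBayes without a trend, quantile and upper quartile scaling, other groupings or tables, and each library left out in turn. Leaving libraries out of the T cell and cytotoxic lists was added after seeing the data.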

Additional observations from a re-analysis of the deposited data

Results flagged for a closer look

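In the 4 control libraries of sorted basal cells, the Cd4 value of library CT065 stood apart from the other 3. It was 16.7 normalized counts, while the others lay between 33.3 and 34.7. The gap exceeded the limit of Dixon's test for 4 values. The 10 genes were checked in 2 groups, 20 checks in all, and chance marks about 1 in 20.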

How the results depend on the processing

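No member passed the adjusted p of 0.05 in a main fit or under any other setting tried. Beside the main fits there were 15 for luminal tumor against basal tumor, 13 for luminal domain against basal tumor and 13 for basal-like against luminal domain. For 4-day mutant against control there were 17, and for luminal domain against luminal tumor 12. The lowest adjusted p of a member over the alternatives was 0.135, 0.206, 0.760, 0.132 and 0.896 in that order. Counts of all genes called moved from 338 to between 52 and 513, from 377 to between 107 and 390, from 0 to between 0 and 20, from 467 to between 147 and 557, and from 0 to between 0 and 7 with other settings, and with 1 library left out to between 3 and 813, 0 and 467, 0 and 0, 129 and 596, and 0 and 1. Of the 3 called T cell list genes, Thy1 kept its call in 7 of 9 other settings, Runx3 in 5 and Fcgr3 in 6. The cause of these moves was not tested.

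Log2 fold changes of members turned in 4 cases with another setting. Cd8a became -0.23 (luminal against basal tumor) and 0.10 (basal-like against luminal domain) with a pseudocount of 5, and with quantile normalization Cd3d became -0.060 at 4 days and Cd8a -0.0092 between luminal domain and luminal tumor. Ptprc was 0.00053 in the smaller 4-day table. Leaving out 1 library turned more of them. For luminal against basal tumor the ranges were -2.91 to 0.97 (Cd3d), -2.91 to 1.00 (Cd3e), -1.85 to 2.67 (Cd3g), -1.91 to 2.88 (Cd8a), -0.017 to 4.47 (Cd8b1) and -3.88 to 1.12 (Nkg7). For luminal domain against basal tumor they were -1.61 to 2.28 (Cd3d), -0.68 to 2.89 (Cd3e), -1.70 to 2.82 (Cd3g), -0.73 to 4.05 (Cd8a), -4.98 to 1.04 (Gzma) and -3.31 to 1.69 (Nkg7). For basal-like against luminal domain they were -1.94 to 2.12 (Cd8a), -0.73 to 2.83 (Cd8b1), -0.15 to 3.91 (Gzma) and -0.27 to 4.22 (Lck), the lower end of the last 3 without CT128. At 4 days they were -0.010 to 0.38 (Cd3d), -0.30 to 0.094 (Cd8a) and -0.21 to 0.059 (Ptprc). For luminal domain against luminal tumor, where leaving out a domain leaves 1 that is assumed to vary like the other groups, they were -0.11 to 3.52 (Cd3e), -0.89 to 0.12 (Cd3g), -0.94 to 6.35 (Cd4), -0.65 to 1.84 (Cd8a), -4.18 to 1.84 (Cd8b1), -2.98 to 5.00 (Gzma) and -3.64 to 2.43 (Nkg7).

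No paired analysis was possible because the labels tie the library numbers of the columns to replicate numbers in 2 cases alone (CT148 and CT063), which share no number with a tied column of the group compared, and consecutive library numbers are not stated to mark 1 lesion. The depth behind the values is unknown, so a value of 0 sets no limit on a gene's level, and the values near 0 that many members take in 3 libraries a group leave standard errors of up to 3.34 on the log2 scale between the tumors.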

Other observations

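The table of wild-type urothelium holds 8 libraries, and neither the labels nor the column names say which of its columns had 1 month of BBN. Values are therefore given by library, with no test and no condition assigned. The columns form 2 sets in the table, and 8 of the 10 genes did not overlap between them, Prf1 and Nkg7 being the exceptions. Of the 15905 genes that reached 10 normalized counts in at least 4 libraries, 3702, or 23.3%, were likewise higher in CT097 to CT101 without overlap. Of the 10 genes, 5 reached that level (Cd3d, Cd3e, Cd3g, Cd4 and Cd8a), Cd3e and Cd3g only through the set in which they were high, so their count is not read against that share. CT103, CT104, CT105 and CT106 summed to 114, 113, 144 and 112 normalized counts over the 10 genes, and CT097, CT098, CT100 and CT101 to 1399, 366, 276 and 495. Cd4, the helper T cell coreceptor, was 12.0, 14.7, 20.6 and 21.8 in the first set of columns and 163, 147, 81.5 and 128 in the other. Cd3e was 4.24, 8.10, 10.6 and 3.45, and 75.3, 32.5, 30.5 and 70.2. Cd3d ran from 49.4 to 106 with a median of 79.0 over the 8 libraries. Gzma was at most 26.99 in 7 of the 8 libraries and 476 in CT097, the library that was also highest for Cd8a (160), Cd8b1 (118) and Gzmb (126). Prf1 and Nkg7 stayed at or under 6.53 and 15.8. The leukocyte gene Ptprc ran from 67.1 to 1185, with a median of 368, and did not overlap between the sets either. Krt5, a basal cell keratin, was 76369 to 94739 in CT103 to CT106 and 112238 to 137217 in the other 4 libraries. Upk2 was 35923 to 68329 against 3069 to 9882, and Pparg was 5993 to 7352 against 2837 to 4793. CT097 to CT101 were thus lower for Upk2 and higher for Krt5, Cd4, Cd8a and Cd8b1, without overlap. For Cd8b1, which did not reach the filter, the gap was small, from at most 4.93 in CT103 to CT106 to at least 5.78 in the others. The paper reports that a short BBN treatment lowered Upk genes and raised Krt5 and the T cell markers Cd4 and Cd8. The directions are the same, but no condition is assigned from them, and which set had BBN was not tested.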
